A study of Mus musculus with 18 samples.

Results

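The genes described here are the nuclear genes for subunits of the 5 complexes of oxidative phosphorylation. They were chosen by symbol alone. The names begin with Nduf followed by a, b, c, s or v and a digit, with Uqcr, or with Atp5. Others begin with Cox, a digit from 4 to 8 and a letter from a to c, or are Sdh with a single letter from a to d. Assembly factors named Ndufaf and any symbol containing -ps were left out. The rule found 82 of the 21638 genes in the table: 35 of complex I, 4 of complex II, 8 of complex III, 18 of complex IV and 17 of complex V. Ndufa4 and Ndufa4l2 were counted with complex IV, where their proteins are placed today. Of the 82, 79 passed the filter on low counts (at least 10 counts in at least 3 libraries), and Cox8c, Cox6a2 and Cox7b2 did not. Subunit genes that the rule misses include Cox4i1, Cox4i2, Cyc1 and Ndufab1, whose values are given separately.

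The study sequenced mRNA of endothelial cells (CD31-positive, CD41-negative, CD45-negative) sorted from the cortex of mice after middle cerebral artery occlusion (MCAO), a surgical stroke model, or after sham surgery. There were 18 libraries in 6 groups of 3: sham ipsilateral, sham contralateral, MCAO ipsilateral and MCAO contralateral, all of genotype WT, and the ipsilateral side after MCAO in mice labelled Hdac2 ECKO or Ezh2 ECKO. ECKO is an endothelial deletion: floxed Hdac2 (a histone deacetylase) or floxed Ezh2 (the histone H3 lysine methyltransferase of Polycomb complexes) with a tamoxifen-inducible Cre under the Cdh5 promoter. All 18 libraries, the WT ones included, carry the label of tamoxifen at 75 mg per kg, and all cells were taken on day 7; the labels do not say whether the WT mice carried the Cre, nor whether replicates came from separate mice, so p-values measure only the spread between these samples.

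Oxidative phosphorylation passes electrons from NADH (complex I) and succinate (complex II) through ubiquinone to complex III, cytochrome c and complex IV, where oxygen is reduced, and complex V uses the resulting proton gradient to make ATP. Each complex combines subunits that carry the redox centres or the catalytic sites with smaller accessory subunits that shape and stabilise it. Complexes I, III, IV and V also hold subunits encoded in mitochondrial DNA, which are not among the genes here, and brain endothelial cells are known for a high mitochondrial content.

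Library totals ran from 25791401 to 57576255 counts. All 10 endothelial markers were read in every library, with a summed level of 11934 to 26632 counts per 1000000 (CPM, on TMM-scaled library sizes), against 47.6 to 279 CPM for 8 neuronal, 30.8 to 92.2 for 7 astrocyte, 6.12 to 191 for 7 oligodendrocyte, 2.03 to 22.8 for 8 microglial or macrophage and 14.1 to 196 for 8 mural markers. Red cell transcripts varied most: globin took 2.44% to 12.7% of counts in the WT groups, 19.9%, 19.5% and 5.41% in the 3 Hdac2 ECKO libraries, and 0.0653%, 0.00932% and 0.0192% in the 3 Ezh2 ECKO libraries. MCAO contralateral replicate 1 and Ezh2 ECKO replicate 2 stood apart, with 1889 and 2083 CPM on 1466 olfactory and vomeronasal receptor genes, which endothelium is not known to use, against 152 to 716 CPM in the other 16 libraries. The deleted genes were not lower under their labels: Hdac2 was at 57.6, 85.0 and 87.9 CPM in libraries labelled Hdac2 ECKO and at 84.4, 68.2 and 96.1 CPM in MCAO ipsilateral libraries, and Ezh2 at 12.0, 19.7 and 8.41 CPM in libraries labelled Ezh2 ECKO against 4.45, 7.02 and 7.85 CPM. The table has 1 value per gene, so counts over the deleted exons alone were not analysed here, and directions below are those of the libraries so labelled.

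The promoters of the 2 genes that passed the test below, Uqcrc1 and Atp5md, and of 2 genes that share the binding motif of NRF1, a regulator of respiratory genes, are printed from RefSeq (GRCm38.p6) as the 200 bases before the annotated start, 5′ to 3′ on the gene's strand, at chr9:108936448-108936647, chr19:47090648-47090847, chr15:102671048-102671247 and chr5:108434400-108434599. The RefSeq start can differ from the edge of the gene as counted. The stretch of Atp5g2 lies inside the counted span (102662864 to 102672352). Those of Atp5k, whose span ends at 108434448, and of Uqcrc1, whose span begins at 108936633, overlap their spans in part. The capitals mark the NRF1 motif as it was searched.
Uqcrc1: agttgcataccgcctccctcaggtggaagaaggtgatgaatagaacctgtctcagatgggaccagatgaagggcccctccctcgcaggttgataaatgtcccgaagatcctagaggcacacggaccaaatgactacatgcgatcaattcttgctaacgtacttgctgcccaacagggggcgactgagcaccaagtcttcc
Atp5md: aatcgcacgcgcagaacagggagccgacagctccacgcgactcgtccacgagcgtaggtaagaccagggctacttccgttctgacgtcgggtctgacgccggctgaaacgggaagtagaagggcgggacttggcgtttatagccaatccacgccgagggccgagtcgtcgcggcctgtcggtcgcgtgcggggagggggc
Atp5g2: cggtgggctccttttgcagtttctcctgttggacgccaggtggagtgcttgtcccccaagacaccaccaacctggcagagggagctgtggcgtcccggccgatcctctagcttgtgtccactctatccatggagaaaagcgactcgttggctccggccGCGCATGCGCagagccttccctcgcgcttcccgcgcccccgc
Atp5k: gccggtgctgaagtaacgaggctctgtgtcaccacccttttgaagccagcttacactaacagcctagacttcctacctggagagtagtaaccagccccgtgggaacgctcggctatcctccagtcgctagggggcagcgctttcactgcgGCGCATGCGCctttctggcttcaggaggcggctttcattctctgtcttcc
The motif, which reads the same on both strands, starts 42 bases before the start of Atp5g2 and 50 bases before that of Atp5k. RefSeq promoters (250 bases before to 50 after the start) were matched for 67 of the 82 genes. The motif was in 5 of them (7.46%: Atp5g2, Atp5k, Cox6a1, Ndufa11 and, after its start, Uqcrc1), against 1.39% of 16526 promoters of all genes in the table. The motif of YY1, another regulator of respiratory genes, was in 4 of 67 (5.97%) against 1.02%, and the ETS motif CCGGAAGT in 5 of 67 (7.46%) against 5.55%, both searched on both strands. A match describes these letters only, and the 5 genes with the NRF1 motif did not share a direction: in libraries labelled Ezh2 ECKO against MCAO ipsilateral their log2 fold changes were -2.75 (Uqcrc1), -1.79 (Atp5g2), -1.04 (Cox6a1), 0.02 (Ndufa11) and 1.00 (Atp5k).

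Together the 82 genes took 2.46% to 5.34% of a library's counts. Their summed level was 22664, 19373 and 31916 CPM in the sham ipsilateral libraries and 38109, 46252 and 40573 CPM in the sham contralateral ones. It was 29404, 29927 and 36149 CPM in MCAO ipsilateral and 22287, 39674 and 35530 CPM in MCAO contralateral libraries. It was 72645, 53221 and 27590 CPM in libraries labelled Hdac2 ECKO and 54800, 19725 and 46009 CPM in those labelled Ezh2 ECKO. The sham sides did not overlap, while the deletion groups spanned nearly the whole range: Hdac2 ECKO replicate 3 held the lowest value of its group for 71 of the 79 tested genes, Ezh2 ECKO replicate 2 for 69, and MCAO contralateral replicate 1 for 73. The sum of the genes over that of 85 cytosolic ribosomal protein genes, another set of short abundant transcripts, stayed between 0.788 and 1.22 in all 18 libraries. In bulk RNA, fewer cells of a type and less RNA per cell cannot be told apart.

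**Figure D1:**
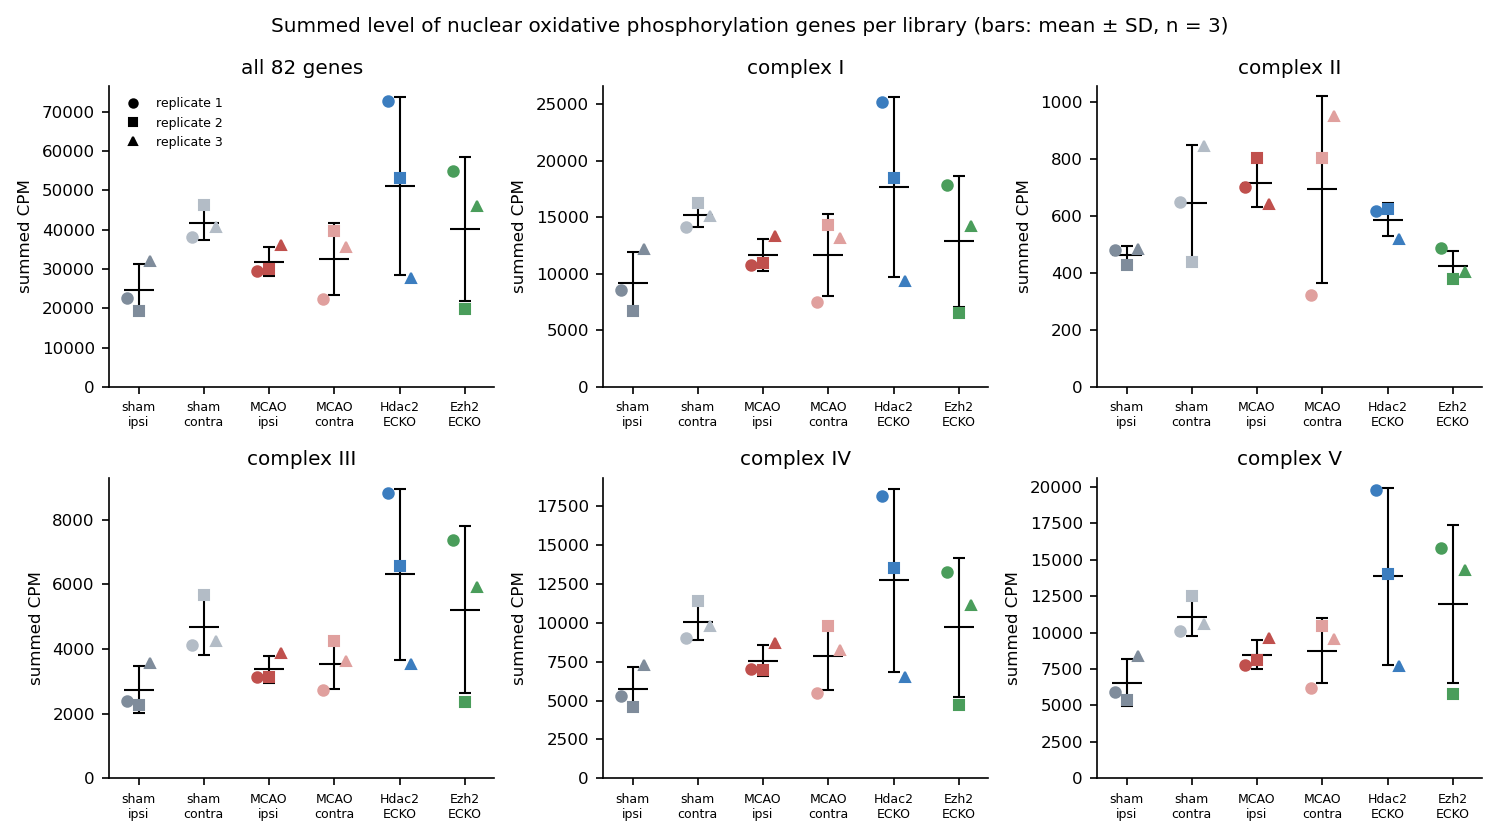
Summed CPM of all 82 genes and of each complex (vertical axes, from 0) in the 6 groups (horizontal axis); symbols are the 3 replicates, bars the mean ± SD. Complexes I, III, IV and V share 1 profile, with Hdac2 ECKO replicate 3 and Ezh2 ECKO replicate 2 low, while complex II stays between 324 and 951 CPM and lies lower in both deletion groups than in the MCAO ipsilateral libraries.

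Levels between genes were compared per kilobase of counted exon. Uqcrb, a small subunit near the ubiquinone site of complex III, had the highest mean over the 18 libraries (2062 CPM per kb). Of the gene pairs that supply one position of complex IV, the ubiquitous form dominated: Cox6a1 stood at 1128 CPM per kb, with Cox6a2, the heart and muscle form, at 0.0455. Cox6b1 was at 1125 and Cox6b2, the testis form, at 1.55, Cox8a at 751 and Cox8b at 0.309, Cox7a2 at 1193 and the muscle form Cox7a1 at 30.9, and Ndufa4 at 1083 and its hypoxia-linked paralog Ndufa4l2 at 2.32. Outside the rule, Cox4i1 was at 612 CPM per kb and its alternative Cox4i2 at 1.52. The 3 genes for the identical c subunit of the complex V rotor ranked Atp5g3 (169 CPM per kb), Atp5g2 (91.4) and Atp5g1 (52.0). How reads of near-identical paralogs and processed pseudogenes were assigned, and whether strand was used, is not given in the sources used here, and 25 of the 82 genes overlap another gene of the table (Atp5j with Gabpa, Atp5md with Taf5), so their levels are uncertain to that extent.

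The genes varied together. With group means removed, a tested gene's log2 level correlated with the mean of the other members at a median r of 0.824 (18 libraries). Of 79 genes, 71 were above 0.5. All points share library and depth, and no such value was computed for other genes. This is therefore a description only and does not mark the members out. Sdha, the flavoprotein of succinate dehydrogenase, had the lowest r (-0.26) and the smallest range of the 79, 1.61-fold from its lowest to its highest library. Its level was 94.9, 103 and 110 CPM in sham ipsilateral, 93.9, 94.9 and 98.8 in sham contralateral and 94.6, 81.6 and 91.8 in MCAO ipsilateral libraries. In MCAO contralateral libraries it was 131, 84.3 and 83.8 CPM. The libraries labelled Hdac2 ECKO held 124, 96.3 and 93.4 CPM and those labelled Ezh2 ECKO 116, 117 and 112 CPM. The groups thus lay within a narrow band, and the highest value came from the MCAO contralateral library with the high receptor signal. Ndufs1, the largest iron-sulfur subunit of complex I, had the next lowest r (0.0183).

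Without occlusion, the genes were lower on the ipsilateral than on the contralateral side in the sham libraries. Of 79 genes, 76 had a log2 fold change below 0 and 3 above (54.8% of all tested genes were above), with a median of -0.74 against 0.07 over all tested genes, and in 44 every ipsilateral library was below every contralateral one, against 6.98% of all genes; none showed the opposite order (8.44% of all genes). None passed the test in edgeR (quasi-likelihood F-test, Benjamini-Hochberg adjusted p under 0.05), where 0% of 17094 genes did. At an unadjusted p under 0.05, 9 members were lower (1.15% of all genes) and none higher (0.708%). Among the 9 were Cox6c and Cox7a2 of complex IV and Atp5l of complex V. DESeq2 called 0 members (0.0353% of the genes it tested). Cox6c, the most abundant complex IV gene by CPM, was at 784, 871 and 1352 CPM ipsilaterally and at 1575, 2542 and 1425 CPM contralaterally. Those groups do not overlap, with a log2 fold change of -0.88 ± 0.42 (SE; edgeR adjusted p = 1). The 84 tested ribosomal protein genes had a median of -0.68 in the same comparison. Red cell markers lay the same way, with 6 of 7 lower and a summed level of 19225 to 59007 CPM ipsilaterally against 72028 to 129597 CPM contralaterally, and their part in the result was not tested. With the level of receptor genes as a covariate the members' median was -0.41.

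Occlusion was compared with sham on the ipsilateral side. Here 72 of 79 genes were higher after MCAO (45.9% of all genes), with a median log2 fold change of 0.39 against -0.09 over all tested genes, and in 29 the groups did not overlap in that direction, against 13.3% of all genes, and in 1 in the other, against 14.4%. No member passed the edgeR test (0% of 17094 genes did). At an unadjusted p under 0.05, 4 were higher (4.26% of all genes) and none lower (2.81%). DESeq2 called 0 members (0.431% of the genes it tested). The redox core of complexes I to III was higher in 10 of 12 genes, with a median of 0.67, and the 5 small membrane subunits of complex V had a median of 0.23. The ribosomal protein genes had a median of 0.61, and with the receptor covariate the members' median was 0.078. Microglial and macrophage markers were higher in 6 of 7 genes, 3 at an unadjusted p under 0.05, with a summed level of 8.59 to 22.8 CPM after MCAO against 3.81 to 7.10 CPM in sham libraries, where Cx3cr1, Tmem119 and C1qb were each at 0 in 2 of 3. Mural markers were lower in 7 of 8 genes (36.8 to 102 CPM against 103 to 158 CPM), and the part of either list in the result was not tested.

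The gene with the smallest p in each complex is given in turn. Ndufa9, an accessory subunit at the junction of the arms of complex I, was at 87.7, 75.2 and 66.9 CPM in sham and at 136, 133 and 124 CPM in MCAO libraries, a log2 fold change of 0.77 ± 0.38 (SE; edgeR adjusted p = 0.707). Sdhc, a membrane anchor of complex II, was at 88.6, 67.8 and 71.6 CPM in sham and at 154, 217 and 121 CPM after MCAO, with 1.11 ± 0.56 (edgeR adjusted p = 0.707). Every MCAO library exceeded every sham library for both genes, but the difference did not pass the test. Uqcrfs1, the Rieske iron-sulfur protein of complex III, was at 57.7, 46.0 and 57.4 CPM in sham and at 109, 114 and 71.4 CPM after MCAO, with 0.87 ± 0.38 (edgeR adjusted p = 0.667). Cox5a, which binds the catalytic core of complex IV, was at 342, 218 and 359 CPM against 572, 583 and 486 CPM, with 0.84 ± 0.41 (edgeR adjusted p = 0.703). Atp5g2, for the c subunit, was at 130, 61.7 and 107 CPM against 187, 265 and 209 CPM, with 1.14 ± 0.51 (edgeR adjusted p = 0.677). In these 3 genes too the groups did not overlap.

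On the contralateral side, MCAO against sham gave a median of -0.30 (all genes 0.17), with 16 of 79 genes higher (59.3% of all genes). In edgeR 0 members were called (0% of all genes), and DESeq2 called 0 (0.153% of the genes it tested). At an unadjusted p under 0.05, 1 was lower (1.76% of all genes), Cox7a1 (-1.10), and none higher (2.65%). That median was -0.01 without MCAO contralateral replicate 1. Between the sides after MCAO the median was 0.02 (all genes -0.05), with 43 of 79 higher (46.2% of all genes). Without MCAO contralateral replicate 1 that median was -0.26. No member was called by edgeR (0% of all genes) or DESeq2 (0.0353% of the genes it tested). None had an unadjusted p under 0.05 (0.328% of all genes higher, 2.75% lower). The test of whether the effect of occlusion differs between sides gave a median difference of 0.71 (all genes -0.08), positive in 77 of 79 genes (46.8% of all genes). By construction this is the side difference after MCAO (median 0.02) less that in sham libraries (median -0.74). It therefore mostly restates the sham side difference and is not a separate result. The test called 0 members in edgeR (0% of all genes) and in DESeq2 (0.0353% of the genes it tested). At an unadjusted p under 0.05 there were 0 (0.263% of all genes higher, 3.12% lower).

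**Figure D2:**
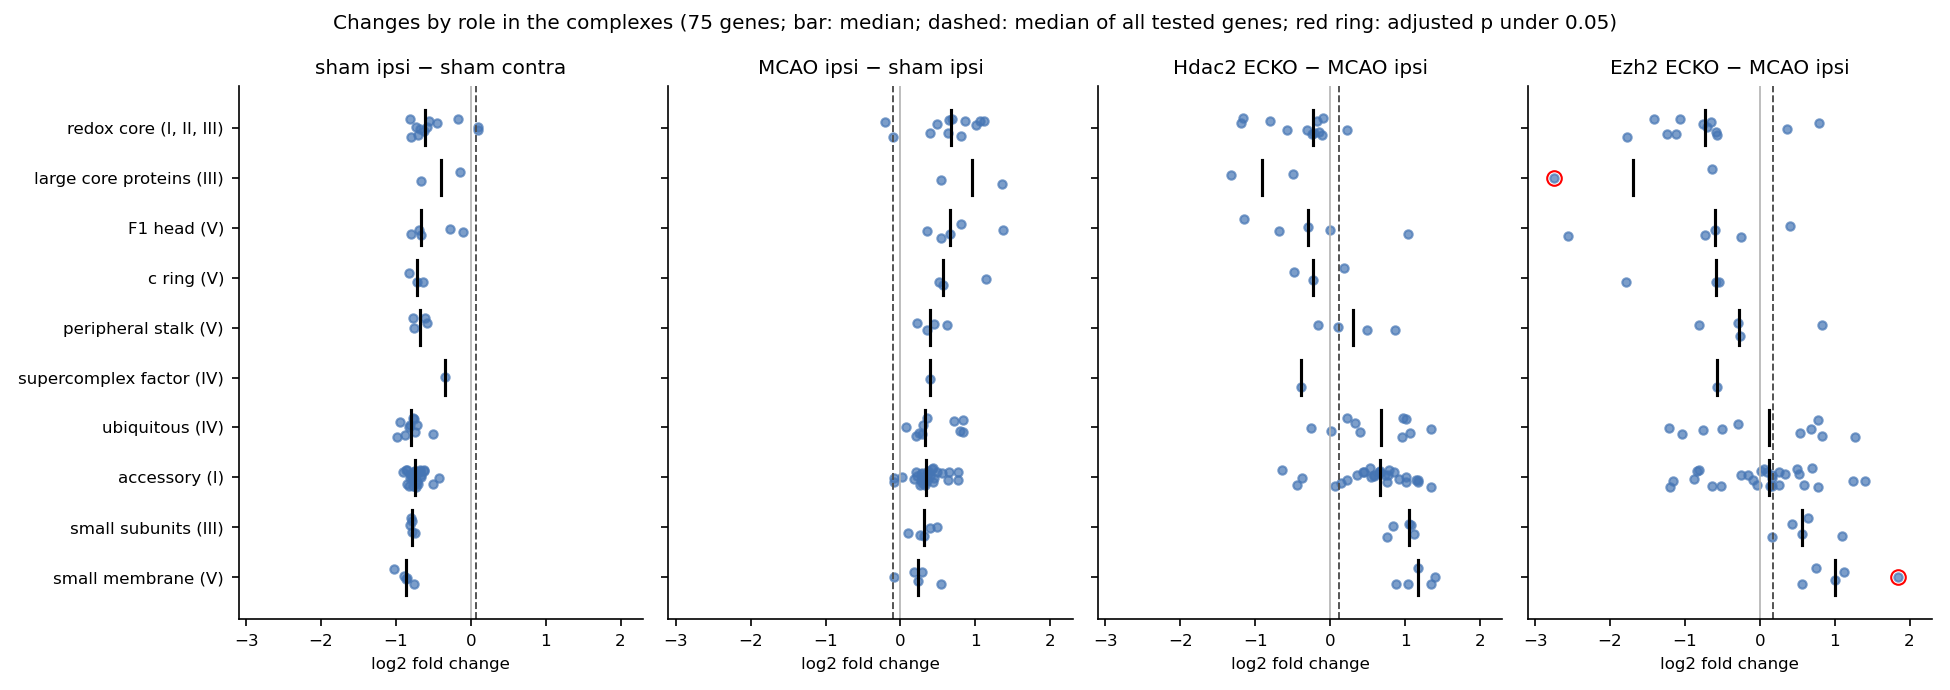
Log2 fold change of each tested gene (horizontal axis) by its role in the complexes (vertical axis) in 4 comparisons; black bars are medians, dashed lines the median of all tested genes, red rings the genes past the edgeR threshold. Tissue-restricted isoforms of complex IV are not drawn. In both deletion panels the small subunits of complexes III and V lie to the right of 0 and most of the redox core to the left.

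In libraries labelled Hdac2 ECKO against MCAO ipsilateral libraries, the complexes did not move as units. The small subunits stood higher and the redox core lower: all 5 small membrane subunits of complex V (median log2 fold change 1.17) and all 5 small subunits of complex III (1.06) were above 0, as were 25 of 28 accessory subunits of complex I (0.66). Of the 12 redox core genes 11 were below 0 (median -0.23), and both large core proteins of complex III, Uqcrc1 (-1.32) and Uqcrc2 (-0.49), were too. Over all 79 genes, 52 were higher (54.8% of all genes), with a median of 0.46 (all genes 0.11). No member passed the edgeR test (0.0117% of all genes did); 24 were higher at an unadjusted p under 0.05 (4.61% of all genes) and 3 lower (5.24%), and DESeq2 called 1, which was higher (1.74% of the genes it tested). Red cell markers were higher in 6 of 7 genes, 5 at an unadjusted p under 0.05. Their summed level was 297898, 251378 and 49334 CPM against 38268, 65450 and 47443 CPM after MCAO, low in the same replicate 3 as the members. In 7 genes every Hdac2 ECKO library lay above every MCAO library (9.54% of all genes) and in 10 below (10.3%). The roles were assigned with earlier results of these data known.

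Ndufa5, an accessory subunit of the matrix arm of complex I, was at 336, 308 and 508 CPM in MCAO ipsilateral libraries and at 1410, 903 and 609 CPM under the Hdac2 ECKO label, a log2 fold change of 1.34 ± 0.42 (SE; edgeR adjusted p = 0.394). Cox6c was at 875, 918 and 1373 CPM against 3913, 2740 and 1434 CPM, with 1.35 ± 0.42 (edgeR adjusted p = 0.394). Atp5md, a small membrane subunit that helps complex V form dimers, was at 562, 493 and 699 CPM against 2351, 1369 and 891 CPM, with 1.40 ± 0.45 (edgeR adjusted p = 0.394). In these 3 genes the groups did not overlap, yet Hdac2 ECKO replicate 3 lay close to the highest MCAO library. Uqcrfs1 lay the other way, at 109, 114 and 71.4 CPM against 52.8, 58.6 and 19.8 CPM, with -1.16 ± 0.38 (edgeR adjusted p = 0.398). Sdhc was at 99.5, 114 and 68.9 CPM under the label, below all 3 MCAO libraries, with -0.80 ± 0.55 (edgeR adjusted p = 0.659). Cox7a1 was higher in every library, at 28.1, 34.7 and 19.1 CPM against 11.8, 11.6 and 7.46 CPM, with 1.41 ± 0.48 (edgeR adjusted p = 0.405). Ndufa4l2 was low throughout, at 0.925, 0.12 and 0.118 CPM against 4.33, 2.3 and 2.44 CPM (edgeR adjusted p = 0.504).

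In libraries labelled Ezh2 ECKO against MCAO ipsilateral libraries, 2 of 79 genes passed the edgeR test, Uqcrc1 lower and Atp5md higher, against 1.46% of all genes, so the share called was near the background. At an unadjusted p under 0.05, 10 members were higher (8.51% of all genes) and 13 lower (10.7%). In 27 genes every Ezh2 ECKO library lay below every MCAO library, against 15.3% of all genes, and in 3 above, against 13.6%. Over the 79 genes 37 were higher (55.4% of all genes), with a median log2 fold change of -0.16 (all genes 0.17). That median was 0.14 without Ezh2 ECKO replicate 2 (all genes 0) and 0.35 with the receptor covariate (all genes -0.01). With no filter on low counts it was 0.04 (all genes 0.50). Its direction thus depends on these choices, and with no filter it stayed below that of all genes.

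Uqcrc1, a large core protein on the matrix side of complex III (chromosome 9, 108936633 to 108949623 on GRCm38), was at 106, 169 and 95.6 CPM in MCAO ipsilateral libraries and fell to 22.1, 11.6 and 21.4 CPM under the Ezh2 ECKO label. All 3 libraries lay below all sham ipsilateral ones as well (76.8, 23.6 and 43.9 CPM), and MCAO contralateral replicate 1, the other library with the high receptor signal, was at 12.0 CPM. The log2 fold change was -2.75 ± 0.66 (SE; edgeR quasi-likelihood test, Benjamini-Hochberg adjusted p = 0.0434). Atp5md (chromosome 19, 47083464 to 47090647) rose from 562, 493 and 699 CPM to 2397, 983 and 2909 CPM, by 1.84 ± 0.46 (edgeR adjusted p = 0.0479). The groups did not overlap, and the lowest of the 3 was again replicate 2. Both calls are close to the threshold: leaving out single libraries of either group gave adjusted p-values of 0.0415 to 0.205 for Uqcrc1 and 0.0527 to 0.25 for Atp5md, with log2 fold changes of -2.94 to -2.46 and 1.5 to 2.17. With the receptor covariate Uqcrc1 was at -1.58 (edgeR adjusted p = 0.225) and Atp5md at 1.79 (0.112), and DESeq2 called 10 members, 5 in each direction, where it called 11.7% of the genes it tested.

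**Figure D3:**
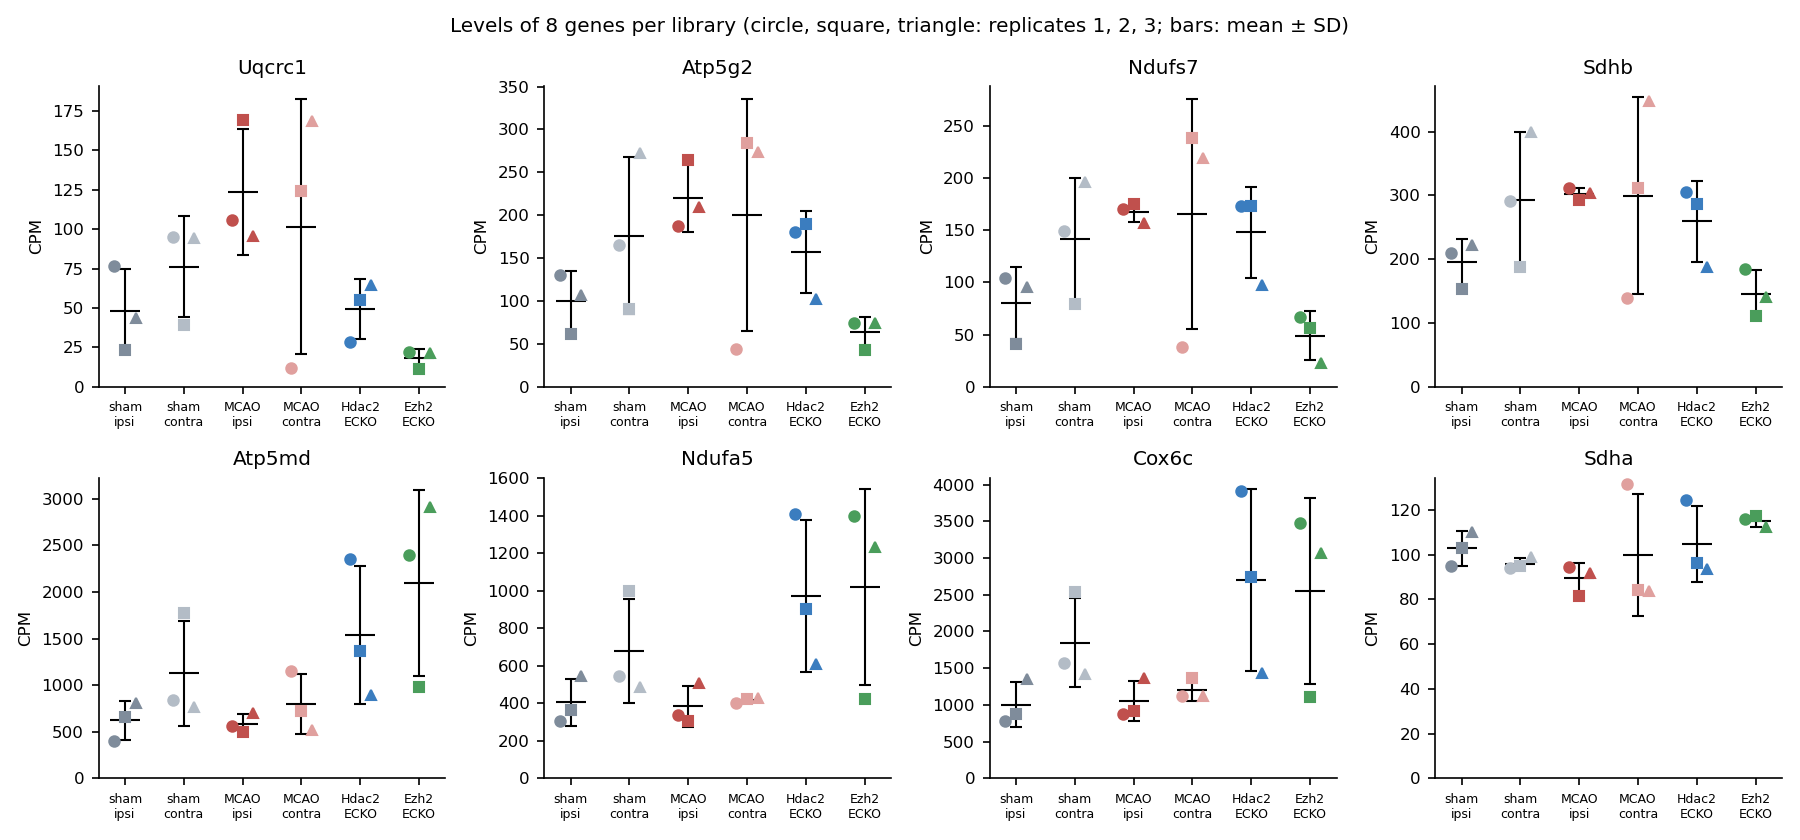
CPM (vertical axes, from 0) of 8 genes in the 6 groups (horizontal axes); symbols are replicates 1 to 3, bars the mean ± SD. In the Ezh2 ECKO group Uqcrc1, Atp5g2, Ndufs7 and Sdhb lie below all MCAO ipsilateral libraries, Atp5md lies above them, and Sdha stays between 81.6 and 131 CPM throughout.

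Under the Ezh2 ECKO label the roles also lay apart, in a comparison that uses the same MCAO libraries. All 5 small membrane subunits of complex V (median 1.00) and all 5 small subunits of complex III (0.56) were above 0, led after Atp5md by Atp5l (1.12) and Uqcrb (1.09), while 10 of 12 redox core genes were below 0 (median -0.74). The 28 accessory subunits of complex I (17 higher) and the 10 ubiquitous subunits of complex IV (5 higher) each had a median of 0.12. This was below the median of all genes (0.17). Of these subunits 25 and 9 were above 0 under the Hdac2 ECKO label. Under the Ezh2 ECKO label they spread to both sides, from -1.20 to 1.41 and from -1.22 to 1.28. Ndufa5 was at 1402, 424 and 1232 CPM against 336, 308 and 508 CPM (log2 fold change 1.41 ± 0.42, edgeR adjusted p = 0.0799), and Cox6c at 3483, 1108 and 3070 CPM (1.28 ± 0.42, edgeR adjusted p = 0.11). In both genes replicate 2 overlapped the MCAO libraries and the other 2 did not. Sdhb, the iron-sulfur subunit of complex II, was tightly grouped at 311, 293 and 304 CPM in MCAO libraries and lay at 185, 111 and 140 CPM under the label, with -1.06 ± 0.38 (edgeR adjusted p = 0.135). Its partners were Sdhc at -1.42, Sdhd at -0.66 and Sdha at 0.36. Ndufs7, the iron-sulfur subunit next to the ubiquinone site of complex I, was at 67.3, 56.7 and 22.4 CPM against 170, 175 and 157 CPM, with -1.77 ± 0.54 (edgeR adjusted p = 0.0866). Ndufs1 and Sdha were the only redox core genes above 0 (0.79 and 0.36). Ndufv1, the lowest complex I gene by CPM, was at 27.0, 27.0 and 21.3 CPM against 51.7, 80.0 and 46.1 CPM. Ndufa7, the highest, was at 1136, 550 and 890 CPM against 907, 942 and 897 CPM, with overlap.

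Complex V held genes far on both sides of 0. Atp5d, the delta subunit of the central stalk, was at 35, 9.36 and 11.8 CPM under the Ezh2 ECKO label against 86.7, 165 and 81.0 CPM in MCAO libraries, with -2.56 ± 0.81 (edgeR adjusted p = 0.0975). Of the c subunit genes, Atp5g2 was at 74.0, 43.4 and 74.2 CPM against 187, 265 and 209 CPM (-1.79 ± 0.52, edgeR adjusted p = 0.075), and the log2 fold changes of Atp5g1 (-0.55) and Atp5g3 (-0.58) did not pass the test either. Atp5j, of the peripheral stalk and the most abundant complex V gene, was at 3805, 1549 and 3571 CPM against 1565, 1576 and 1874 CPM (0.83 ± 0.38, edgeR adjusted p = 0.23). In complex IV, Cox8a (-1.22) and Cox6a1 (-1.04) lay lower while Cox6c lay higher, and Cox7a2l, which joins complexes III and IV, was at 134, 121 and 148 CPM against 191, 185 and 223 CPM. Cox6b2 was at 0.0539, 0.114 and 0 CPM against 0.957, 0.53 and 1.39 CPM, a few counts per library, and Cox8b, at 0 in 12 of 18 libraries, gives no usable ratio. Among the subunits outside the rule, cytochrome c1 (Cyc1) was at 30.1, 5.09 and 28.3 CPM against 57.1, 94.1 and 52.0 CPM (-1.68 ± 0.58, edgeR adjusted p = 0.127), and Cox4i1 (-0.72) and Ndufab1 (-0.33) overlapped.

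The roles differ in transcript length and, less so, in GC content. Medians were 1088 bases and 53.8% for the redox core. They were 435 bases and 52.2% for the small membrane subunits of complex V, and 474.5 bases and 50.2% for the small subunits of complex III. The fold changes varied with both measures, and whether either bears on the split between roles was not tested. Both measures are medians over each gene's annotated protein-coding transcripts, each counted equally, and which of them were expressed is not known. Uqcrc1 was thus set at 533 bases, with 4135 bases of counted exon, and Ndufs1 at 651, with 8086. All values by length, the length correction included, are uncertain to that extent. In libraries labelled Ezh2 ECKO the log2 fold change of the 79 genes had a Spearman rho of -0.47 with transcript GC content and of -0.40 with transcript length. Over all tested genes these were -0.47 and 0.28. Of the 26 genes in the lowest tercile of GC (42.0% to 49.9%) 16 were higher (median 0.25), and of the 26 in the highest tercile (54.5% to 61.1%) 8 were (median -0.89). By length, 19 of 26 of the shortest (up to 562 bases) and 4 of 26 of the longest (870.5 bases or more) were higher. Under the Hdac2 ECKO label rho was -0.25 with GC and -0.55 with length, and over all tested genes -0.35 and 0.17. When the trend of level on GC was removed from each library, Uqcrc1 was at -2.06 (edgeR adjusted p = 0.105) and Atp5md at 1.41 (0.189). With the trend on length removed Uqcrc1 was at -2.36 (edgeR adjusted p = 0.06), and 5 members were called against 0.673% of all genes, all higher, Atp5md (2.16, adjusted p = 0.0364), Ndufa5 and Cox6c among them. All 10 small subunits of complexes III and V stayed above 0 in both deletion comparisons under both corrections, with medians of 1.18 and 1.02 for Hdac2 ECKO and 1.00 and 1.06 for Ezh2 ECKO. The redox core stayed lower in 10 of 12 genes for Ezh2 ECKO (medians -0.53 and -0.34) but in 7 and 8 of 12 for Hdac2 ECKO (-0.21 and -0.05). These corrections were chosen after seeing the data. Over all genes the Ezh2 ECKO change rose with length, so removing that trend tends to raise short genes. The median of the small subunits went from 0.70 to 1.06 and that of the redox core from -0.74 to -0.34. The small subunits' place above 0 and the calls under the length correction are thus no check of the split there. Over all genes both deletion changes fell with GC content, and the small subunits' GC medians were above that of all tested genes (49.6%). Removing the GC trend moved their median from 0.70 to 1.00 for Ezh2 ECKO and from 1.07 to 1.18 for Hdac2 ECKO. Their place above 0 under the GC correction is thus no check either.

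**Figure D4:**
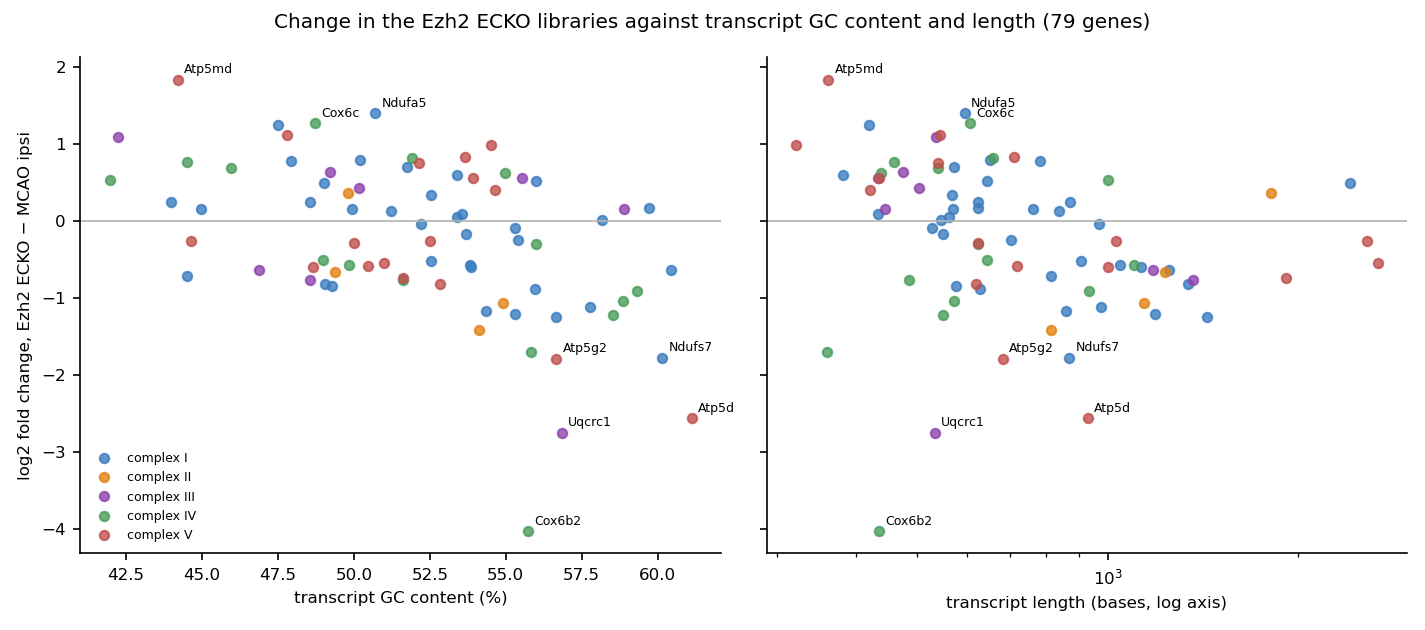
Log2 fold change between libraries labelled Ezh2 ECKO and MCAO ipsilateral libraries (vertical axis) against transcript GC content (left) and transcript length on a log axis (right) for the 79 tested genes, coloured by complex. Genes of high GC content, such as Atp5d, Ndufs7 and Uqcrc1, lie low and Atp5md lies high. The lowest point, Cox6b2, rests on a few counts per library. Length is the median over annotated protein-coding transcripts, which sets Uqcrc1 at 533 bases.

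The split was also read without the libraries that stood apart. Without Ezh2 ECKO replicate 2 all 10 small subunits remained above 0 (median 1.03) and 10 of 12 redox core genes below (-0.70). Without Ezh2 ECKO replicate 1 only 8 of the 10 small subunits were above 0 (median 0.36). Without Hdac2 ECKO replicate 1 all 10 were above 0 with a median of 0.64 in place of 1.07, and 11 of 12 redox core genes were below 0 (-0.41). Without Hdac2 ECKO replicate 3 the 10 small subunits had a median of 1.33, and 8 of 12 redox core genes were below 0 (median -0.09). With the receptor covariate the medians of the small subunits were 1.15 (Hdac2 ECKO) and 1.08 (Ezh2 ECKO), and those of the redox core -0.05 and -0.23.

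Both deletion comparisons share the MCAO libraries, so their values are given side by side only; the comparison with sham ipsilateral libraries uses other controls, which the 2 groups again share. Against sham, 40 members were higher under the Hdac2 ECKO label at an unadjusted p under 0.05 (4.54% of all genes) and 0 lower (2.6%), with a median of 0.93 (all genes -0.01), and edgeR called 0 members (0% of all genes) where DESeq2 called 6 (1.8% of the genes it tested); the median was 0.59 without Hdac2 ECKO replicate 1. Under the Ezh2 ECKO label 17 were higher (2.64% of all genes) and 2 lower (3.88%), Uqcrc1 (-1.39) and Cox6b2, with a median of 0.27 (all genes 0.13), and edgeR called 0 members (0.041% of all genes) where DESeq2 called 2 (1.35%). That median was 0.043 without Ezh2 ECKO replicate 1 and 0.59 without replicate 2. All 10 small subunits of complexes III and V were above 0 in both (medians 1.33 and 1.02). The redox core was higher in 8 of 12 genes for Hdac2 ECKO (0.23) and in 5 of 12 for Ezh2 ECKO (-0.17), so its place below MCAO libraries was not found against sham for Hdac2 ECKO. For Ezh2 ECKO the direction against sham turned with the processing: 9 of 12 were higher with the GC trend removed (median 0.15), 7 with the receptor covariate (0.15) and 7 without sham ipsilateral replicate 1 (0.03). Compared directly, 70 of 79 genes were higher in libraries labelled Hdac2 ECKO than Ezh2 ECKO (44.4% of all genes), with a median of 0.45 (all genes -0.15), but edgeR called 0 members (0.123% of all genes). At an unadjusted p under 0.05, 15 were higher (6.96% of all genes), among them Ndufs7 (1.60), Cox6a1 (1.44) and Uqcrc1 (1.43), and Ndufs1 was lower (-0.89; 4.25% of all genes); DESeq2 called 2 (5.05% of the genes it tested), and the median was 0.12 without Ezh2 ECKO replicate 2. Globin differed between the same groups as given above, and its part, like that of the receptor signal, GC content and length, in these results was not tested.

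Other genes of mitochondrial energy supply gave no called gene in edgeR in these 3 comparisons (MCAO against sham, and each deletion against MCAO). Of 45 assembly factors 36 were higher after MCAO than sham, and 21 and 19 were higher under the Hdac2 ECKO and Ezh2 ECKO labels than after MCAO. Of 17 genes of electron carriers and subunits outside the rule these counts were 12, 5 and 5, of 18 citric acid cycle genes 14, 4 and 4, and of 29 small mitochondrial ribosome proteins 28, 6 and 4. Of 17 outer membrane and import genes they were 15, 2 and 2, of 19 regulators of mitochondrial biogenesis 11, 8 and 9, and of 11 genes of the hypoxic switch 11, 3 and 2. At an unadjusted p under 0.05, between 0 and 4 genes of a list were higher after MCAO and none lower. In the Ezh2 ECKO comparison up to 2 were higher. Lower there were 10 assembly factors, 10 mitochondrial ribosome proteins, 8 import genes and 3 regulators. Of the electron carrier, citric acid cycle and hypoxic switch lists, 4 genes each were lower. Over all genes the shares above 0 in the 3 comparisons were 45.9%, 54.8% and 55.4%. At an unadjusted p under 0.05 in the Ezh2 ECKO comparison 8.51% were higher and 10.7% lower. The regulators thus lay near the background, while the share lower in each of the other lists was above it. After MCAO the median of each of these 7 lists was above 0, as that of the members was. In the Hdac2 ECKO comparison 0 to 5 genes of a list were higher and 0 to 2 lower at that threshold. Among the regulators, Nrf1 (0.81), Gabpa (0.30), Tfam (0.55), Esrra (-0.74) and Yy1 (1.04) did not pass the test under the Ezh2 ECKO label. Of the marker lists, 5 of 7 red cell genes and 1 of 10 endothelial genes fell in that comparison by the same test, and no gene of the neuronal, astrocyte, oligodendrocyte, microglial or mural lists was called in any of the 3.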

How the data were processed

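The deposited table gives counts per gene for 18 mRNA libraries (SMART-Seq, paired reads, per the labels' protocols). Its name calls them normalized, but the deposited counts are whole numbers with unequal totals, 77.3% to 89.4% of those from 1 to 20 being even, so they were taken as unscaled; 0 columns of per-sample values lacked a sample. The submitters' processing notes name FastQC, cutadapt, STAR, featureCounts, DESeq2 and the build mm10, without roles, order or versions; strand setting and annotation are not given in the sources used here. The lowest coordinate of all 82 genes matched GENCODE M21 on GRCm38. On the minus strand this is the end of the gene, so starts there were not checked. The same annotation gave transcript GC content and length, as medians over a gene's protein-coding transcripts where it has any.

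Here the counts were tested with edgeR 4.0.16 in R 4.3.3 (TMM, quasi-likelihood F-test, 6 group means fitted to 18 libraries), on 17094 genes with at least 10 counts in at least 3 libraries; adjusted p-values are Benjamini-Hochberg values over those genes, SE is the log2 fold change over the root of F, and the script was tested on simulated data. CPM uses TMM-scaled totals. DESeq2 1.42.0, other filters and scalings, a replicate block, halved counts, the level of receptor genes as covariate and leaving out each library were alternatives.

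Members, lists and roles were chosen with earlier results of these data known. Genes named with values were those called, the smallest p per complex in 3 comparisons, the highest and lowest by CPM per complex, isoform pairs and the Sdh genes; others named for their role, motif or place at an extreme were chosen after their values were seen. Group labels came from sample titles.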

Additional observations from a re-analysis of the deposited data

How the results depend on the processing

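With DESeq2 the number of members called was 10 for Ezh2 ECKO against MCAO (11.7% of the genes it tested), 1 for Hdac2 ECKO against MCAO (1.74%), 2 for Hdac2 ECKO against Ezh2 ECKO (5.05%), 6 for Hdac2 ECKO against sham (1.8%) and 2 for Ezh2 ECKO against sham (1.35%). In the Ezh2 ECKO comparison with MCAO, where 2 members were called, it was 4 with a filter of 50 counts (4.13% of all genes), 5 in a fit of the compared groups only (2.47%), 3 with RLE size factors (2.15%), 0 with the receptor covariate (0.0761%), 0 with the GC trend removed (0.0468%) and 5 with the length trend removed (0.673%), and 0 to 1 when single libraries were left out. RLE scaling moved the median of all tested genes there from 0.17 to 0.36 and that of members from -0.16 to -0.03. The receptor covariate moved the members' median to 0.078 (MCAO against sham, ipsilateral), -0.41 (sham sides), 0.28 (side by occlusion) and 0.35 (Ezh2 ECKO against MCAO); the cause was not tested. Leaving out single libraries gave medians of 0.23 to 0.64 for MCAO against sham ipsilateral, 0.06 to 0.74 for Hdac2 ECKO against MCAO, -0.39 to 0.14 for Ezh2 ECKO against MCAO, 0.59 to 1.25 for Hdac2 ECKO against sham and 0.043 to 0.59 for Ezh2 ECKO against sham; the lowest for Hdac2 ECKO came in both comparisons without its replicate 1.

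Titles give every group replicate numbers 1 to 3. Deviations from the group means of same-numbered libraries correlated at -0.45 to 0.30 over 45 pairs, with 9 above 0.1. Libraries with different numbers gave -0.40 to 0.49 over 90 pairs, with 25 above 0.1. These pairs pool all groups, and pairs of the sides of sham or of MCAO mice were not read apart. Whether same-numbered libraries of the sides came from the same mouse was therefore not tested. With a replicate block 0 members were called for Ezh2 ECKO against MCAO (0.0702% of all genes; edgeR adjusted p = 0.0668 for Uqcrc1 and 0.0809 for Atp5md), and no other count of calls moved. With 3 libraries per group and a common biological coefficient of variation of 0.774, a call absent here does not show that levels were equal.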
